A study of Mus musculus with 18 samples.

Results

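Oxidative phosphorylation subunits were taken from the gene table of the 18 libraries by their mouse symbols. A protein-coding gene was a member when its symbol began with Ndufa, Ndufb, Ndufc, Ndufs, Ndufv, Uqcr, Cox4i, Cox5, Cox6, Cox7, Cox8, Atp5 or mt-, or was Sdha, Sdhb, Sdhc or Sdhd, and assembly factors (Ndufaf) and pseudogenes were left out. The rule found 93 of 19153 genes. Of these, 80 were encoded in the nucleus, with 36 in complex I, 4 in complex II, 8 in complex III, 15 in complex IV and 17 in complex V, and 13 were encoded in the mitochondrial genome. Ndufa4, named for complex I, was counted with complex IV, where the protein is now placed. All 93 members were among the 17672 genes tested, which had more than 5 counts in each of the 3 libraries of at least 1 group. The symbols Cox4i2, Cox6b2, Cox7b2, Cox8c and Ndufa4l2, which also begin as the rule asks, were not among the genes of the files and were not analysed here.

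Polyadenylated RNA of immortalized mouse myoblasts was sequenced in 6 groups of 3 replicates. All cells carried a p53 knockout. The wildtype (WT) cells had LAP2alpha, a nucleoplasmic partner of A-type lamins, and had received a Cas9 vector without guide RNA. The LAP2alpha knockout (KO) cells had received the vector with a guide against the gene. Cells of both genotypes were sorted for EGFP from the vector and used as bulk-sorted cells. Cells of each genotype were collected while proliferating below confluence in 20% serum (Prol), on reaching confluence (day 0 of differentiation, D0), and after a further culture in 5% serum until day 2 of differentiation (D2). The cells are an established line kept in culture, and nothing in the labels says that the replicates were separate cultures, so that p-values measure only the spread between these libraries.

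The respiratory chain consists of complexes I to IV in the inner mitochondrial membrane that pass electrons from NADH and succinate to oxygen, and ATP synthase, complex V, uses the proton gradient made by complexes I, III and IV to form ATP. Complexes I, III, IV and V are built from subunits of both genomes, whereas complex II is encoded by nuclear genes alone. Several subunits of complex IV, cytochrome c oxidase, exist as isoforms, and heart and skeletal muscle use their own forms of subunits 6a, 7a and 8, which replace the ubiquitous forms as muscle matures.

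Total counts ranged from 26437823 to 41619016 per library, with a median of 32939620. Values are given as deposited, in counts per 1000000 counts of the library after scaling (CPM). Positions are in the GRCm38 assembly of the mouse genome. A gene was called when its adjusted p in limma with Benjamini-Hochberg adjustment over all 17672 genes was under 0.05. Unless a replicate block is named, the fit did not use the replicate number. In bulk RNA, fewer cells that express a gene and less RNA of it per cell cannot be told apart. The summed level of the 5 myoblast markers in the files ranged from 102 to 244 CPM before D2, from 497 to 853 CPM in WT D2 and from 382 to 430.1 CPM in KO D2. Among them, Myod1, the myoblast determination factor, lay between 0.736 and 5.88 CPM in all libraries before D2, between 79.0 and 99.7 CPM in WT D2 and between 47.7 and 75.2 CPM in KO D2, whereas Myf5, another myogenic factor, lay between 20.5 and 37.1 CPM before D2, between 11.6 and 21.4 CPM in WT D2 and between 14.9 and 29.6 CPM in KO D2. The summed level of the 4 fibroblast markers in the files ranged from 13.2 to 77.5 CPM before D2 and was at least 121 CPM in each WT D2 library and 130.4 to 306 CPM in KO D2, and Pax7 was not among the genes of the files. The part of such cells in the results below was not tested. Tmpo, the gene of LAP2alpha, was at 275 to 315 CPM in WT Prol and 228 to 260.4 CPM in KO Prol, a sum over all its isoforms that does not isolate LAP2alpha.

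The largest fold changes between D2 and Prol among the subunits were those of muscle isoforms of cytochrome c oxidase, and the upstream sequences of the muscle isoforms with an entry and of ubiquitous ones are shown for comparison. They are the 250 bases before the RefSeq start of each gene in GRCm38.p6, written 5′ to 3′ on the gene's strand, with motif matches in capitals. The Cox8b sequence (chr7:140900447-140900696, minus strand) holds CAGCTG, an E-box of the kind that myogenic factors bind, with its first base 19 bases before the start. The Cox8a sequence (chr19:7217617-7217866, minus strand), of the ubiquitous partner of Cox8b, holds none of the motifs searched, and the Cox6a1 sequence (chr5:115348959-115349208, minus strand) holds CGCATGCG, a match to the motif of nuclear respiratory factor 1 (NRF1), at 161 bases before the start. The Cox7a1 sequence (chr7:30183921-30184170, plus strand), of another muscle isoform, holds none of the motifs.
Cox8b: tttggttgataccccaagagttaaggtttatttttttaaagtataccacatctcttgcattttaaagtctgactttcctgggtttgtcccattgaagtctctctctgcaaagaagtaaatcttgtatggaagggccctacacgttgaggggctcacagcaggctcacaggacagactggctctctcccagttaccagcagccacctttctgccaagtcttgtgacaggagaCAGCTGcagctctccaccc
Cox7a1: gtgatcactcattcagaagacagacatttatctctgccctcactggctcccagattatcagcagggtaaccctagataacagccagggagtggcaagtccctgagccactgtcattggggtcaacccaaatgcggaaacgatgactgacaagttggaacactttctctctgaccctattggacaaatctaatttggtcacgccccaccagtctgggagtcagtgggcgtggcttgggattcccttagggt
Cox8a: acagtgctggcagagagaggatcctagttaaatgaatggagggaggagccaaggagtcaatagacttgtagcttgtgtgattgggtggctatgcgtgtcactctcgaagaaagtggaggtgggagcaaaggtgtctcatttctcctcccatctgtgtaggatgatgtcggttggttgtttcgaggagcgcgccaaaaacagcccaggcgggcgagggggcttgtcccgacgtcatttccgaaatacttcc
Cox6a1: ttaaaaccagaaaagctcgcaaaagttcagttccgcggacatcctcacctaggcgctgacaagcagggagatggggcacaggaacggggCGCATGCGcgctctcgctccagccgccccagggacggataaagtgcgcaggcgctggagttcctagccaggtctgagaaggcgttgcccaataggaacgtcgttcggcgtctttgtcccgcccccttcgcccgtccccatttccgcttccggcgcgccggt

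The Cox8b sequence had 47.2% GC and 1 CpG, that of Cox7a1 51.2% GC and 4 CpG, that of Cox8a 52.8% GC and 11 CpG, and that of Cox6a1 62.8% GC and 26 CpG. Of the 80 nuclear members, 67 had an entry, and their median GC was 56.4%, against 52.0% over 27025 genes. CGCATGCG was found on either strand in 7 of 67 (10.4%) and in 1.75% of all genes, with Atp5g2, Atp5j, Atp5k, Atp5l, Cox6a1, Ndufa11 and Ndufa8 holding it. AAGGTCA, the extended site of oestrogen-related receptors, was found in 5 members (7.46%) and 4.7% of all genes, and CAGCTG in 6 members (8.96%) and 14.7% of all genes. CCGGAAGT, the core of the GABP motif, was found in 3 members (4.48%) and 3.23% of all genes, and AAGATGGC, the YY1 motif, in 1 member (1.49%) and 1.83% of all genes. A match is a description of the letters in this window and says nothing of binding.

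Cox8b (ENSMUSG00000025488, chr7:140898945-140900446, minus strand) encodes the heart and muscle form of subunit 8. Counts recovered from the deposited values were 0 in all libraries of WT Prol, KO Prol and KO D0, and 1, 0 and 0 in WT D0. At D2 they were 172, 245 and 147 in WT (5.13, 6.71 and 4.15 CPM) and 61, 237 and 113 in KO (2.01, 5.15 and 2.97 CPM). Every D2 library thus lay above every earlier library in each genotype, and the ranges of WT D2 and KO D2 overlapped. Against a floor of 3 counts over the earlier group, Cox8b was at least 164-fold higher in WT D2 than in WT Prol, at least 114-fold higher in KO D2 than in KO Prol, and at least 124-fold higher in KO D2 than in KO D0. In limma the adjusted p was 4.55e-08 for WT D2/Prol and 2.37e-07 for KO D2/Prol. The KO D2 and WT D2 groups differed by -0.74 ± 0.50 (log2, SE), with an adjusted p of 1.

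Cox6a2 (ENSMUSG00000030785, chr7:128205435-128206387, minus strand) encodes the heart and muscle form of subunit 6a. Its counts were 8, 2 and 2 in WT Prol, 7, 6 and 2 in WT D0 and 61, 59 and 49 in WT D2, and 4, 2 and 0, then 3, 8 and 4, then 21, 46 and 28 in the KO groups. The D2 libraries were again the highest of their genotype without overlap. The level at D2 was 1.83, 1.63 and 1.39 CPM in WT and 0.703, 1.01 and 0.746 CPM in KO, so that all 3 KO D2 libraries lay below all 3 WT D2 libraries. Cox6a2 rose by 3.70 ± 0.66 (log2, SE; adjusted p = 0.000507, limma) in WT D2/Prol and by 3.85 ± 0.66 (adjusted p = 0.000354) in KO D2/Prol, and the ratios of summed counts were 12.3 and 13.1. The difference between KO D2 and WT D2 was -0.99 ± 0.66 with an adjusted p of 1. With 1 CPM added before the log2, which moves low values together, this difference was -0.52 ± 0.10 (adjusted p = 0.0468). Cox6a2 was then the only member called between the genotypes at D2. No other setting called it there, and the counts behind it were 21 to 61 a library. This setting was not refitted with libraries left out, and the share of all genes called under it is not given here.

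Cox7a1 (ENSMUSG00000074218, chr7:30184144-30186078, plus strand), the muscle form of subunit 7a, was not called. Counts were 0, 5 and 3 in WT Prol, 4, 4 and 7 in WT D0 and 3, 34 and 24 in WT D2, and 8, 7 and 5, then 9, 12 and 6, then 2, 28 and 21 in the KO groups. In each genotype the D2 libraries of replicates 2 and 3 were the highest and that of replicate 1 (0.104 CPM in WT and 0.0818 CPM in KO) was no higher than most earlier ones. WT D2/Prol was 2.54 ± 1.00 (adjusted p = 0.0661) and KO D2/Prol 0.46 ± 1.00 (adjusted p = 0.777). Without WT D2 replicate 1 the WT value was 3.52 and passed the test, and without WT Prol replicate 1 it was 1.35.

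The ubiquitous partners did not pass the test. WT D2/Prol was -0.24 ± 0.20 for Cox8a (adjusted p = 0.396), -0.02 ± 0.16 for Cox6a1 (adjusted p = 0.952) and -0.02 ± 0.50 for Cox7a2 (adjusted p = 0.982). On the per-length scale, the muscle form made up 5.15 to 5.83% of Cox8b plus Cox8a in WT D2 and 2.24 to 5.16% in KO D2. The share of Cox6a2 in Cox6a2 plus Cox6a1 was 0.733 to 0.962% in WT D2 and 0.386 to 0.504% in KO D2, and at most 0.123% in any earlier library. The share of Cox7a1 in Cox7a1 plus Cox7a2 was 0.16 to 0.607% in WT D2 and 0.136 to 0.541% in KO D2. The muscle isoforms were thus a small part of their pairs at D2, and mean levels per kilobase of transcript were 14.8 CPM for Cox8b against 253 CPM for Cox8a in WT D2.

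**Figure D1:**
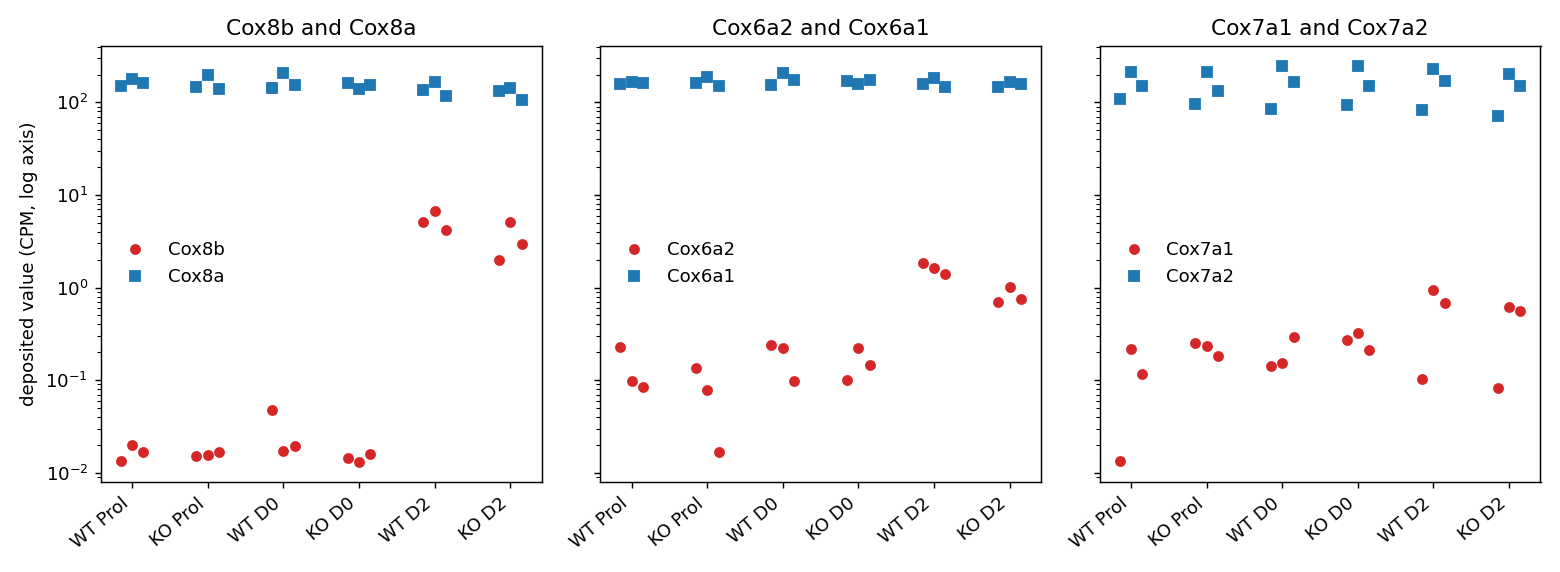
Level in CPM (log axis) of Cox8b and Cox8a, Cox6a2 and Cox6a1, and Cox7a1 and Cox7a2 in each of the 18 libraries, by group, with replicates 1, 2 and 3 from left to right within a group. Cox8b and Cox6a2 stand above all earlier libraries at D2 in both genotypes, whereas Cox7a1 does so in replicates 2 and 3 only and the ubiquitous partners stay near their earlier levels.

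Across all nuclear members, few passed the test between D2 and Prol. In WT D2/Prol, 4 of 80 were called higher and 2 lower, whereas 16.6% of all genes tested were called higher and 14.1% lower. In KO D2/Prol, 4 were called higher and 6 lower, against 17.1% and 15.2% of all genes. The median log2 fold change of the nuclear members was 0.088 in WT, with 45 above 0 and 35 below, and -0.028 in KO, with 39 above 0 and 41 below. Over all genes it was -0.012 and 0.024, close to the nuclear medians. Within replicate numbers 1, 2 and 3, the nuclear median was -0.105, 0.136 and 0.104 in WT and -0.273, 0.0129 and 0.163 in KO. The nuclear median of the fit turned with single libraries, whose removal leaves the replicate numbers uneven between D2 and Prol. In WT it was -0.14 without D2 replicate 2, -0.097 without Prol replicate 1 and 0.29 without D2 replicate 1, and in KO it was 0.23 without D2 replicate 1, 0.15 without Prol replicate 2, -0.25 without D2 replicate 2 and -0.21 without Prol replicate 1. Their median SE was 0.34 on the log2 scale, against 0.38 over all genes. The 5 members called in both genotypes, of 6 in WT and 10 in KO, were Cox8b, Cox6a2, Ndufv3, Uqcrc1 and Cox5a.

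Same-numbered libraries of KO Prol, KO D0 and KO D2 deviated together. Those of WT Prol and WT D2 did so in replicates 1 and 2 (correlations of 0.404 and 0.269) but hardly in replicate 3 (0.0393). In both genotypes the counts were larger in a fit that took this number as a block. For WT D2/Prol, 16 nuclear members were then called higher and 12 lower, and 24.4% and 23.3% of all genes. For KO D2/Prol, 8 nuclear members were then called higher and 20 lower, and 24.6% of all genes were called higher and 23.9% lower. The 8 were Cox8b, Cox6a2, Ndufv3, Ndufa6, Ndufa3, Ndufa7, Ndufa13 and Sdhc, of which 5 belong to complex I. The 20 came from all 5 complexes and included 7 of 17 members of complex V and 4 of 8 of complex III. Another rule asked for an unadjusted p under 0.05, an absolute log2 fold change over 1.5 and 10 CPM in 1 or more compared libraries. With this rule, worded as in the paper's methods, no member passed in either genotype. All genes gave 4.41% higher and 3.27% lower in WT and 4.65% and 3.53% in KO. Cox8b and Cox6a2 did not reach 10 CPM. With a looser limit of 1.5-fold in place of the log2 limit, Ndufv3 was higher and Uqcrc1, Cox5a, Atp5a1 and Atp5b were lower in WT, 1 and 4 members against 10.8% and 12.8% of all genes. In KO the looser limit gave 2 members higher (Ndufa6 and Ndufv3) and 6 lower (Uqcrc1, Cox5a, Atp5a1, Ndufa12, Atp5b and Atp5g2), against 11.3% and 13.7%. In WT D2/Prol, 1906 genes were higher and 2261 lower under the looser limit, and 780 and 578 under the log2 limit. The gene numbers that the paper reports for this comparison are nearer to those of the looser limit. The absence of members under the log2 limit therefore need not hold for the paper's own list.

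Complex I, NADH dehydrogenase, had 1 of its 36 nuclear members (2.78%) called higher in WT D2/Prol and none lower, with a median of 0.034. Of all genes, 16.6% were called higher and 14.1% lower. Ndufv3 (chr17:31520115-31531331, plus strand), an accessory subunit of the NADH-binding module, was at 37.3, 53.1 and 37.3 CPM in WT Prol and at 60.4, 127 and 100.5 CPM in WT D2. In KO it was at 30.5, 49.5 and 36.9 CPM in Prol and at 48.5, 98.6 and 83.6 CPM in D2. The groups did not overlap in WT and overlapped in KO, where D2 replicate 1 lay below Prol replicate 2, and replicate 1 was the lowest of each D2 group. The fold change was 1.13 ± 0.32 (adjusted p = 0.0132, limma) in WT and 0.95 ± 0.32 (adjusted p = 0.0316) in KO. The WT call was lost without WT D2 replicate 2 or WT Prol replicate 3, with adjusted p-values up to 0.0683, and the KO call was lost without KO Prol replicates 1 or 3 or KO D2 replicates 2 or 3, with values up to 0.141.

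A pair of small accessory subunits, Ndufa6 and Ndufa12, were called in KO, and were picked out after their values were seen. Ndufa6 was at 44.7, 58.5 and 49.9 CPM in KO Prol and at 67.2, 120.2 and 86.1 CPM in KO D2, where all libraries were higher. It rose by 0.81 ± 0.25 (adjusted p = 0.0202) in KO, and the value was 0.55 ± 0.25 (adjusted p = 0.108) in WT. Ndufa12 was at 60.3, 77.4 and 68.0 CPM in KO Prol and at 36.7, 46.0 and 47.8 CPM in KO D2, where all libraries were lower. It fell by 0.66 ± 0.20 (adjusted p = 0.0208) in KO, and the value was -0.51 ± 0.20 (adjusted p = 0.0699) in WT. In KO, leaving out D2 replicate 2 or Prol replicates 1 or 3 ended the call for Ndufa6, with an adjusted p of up to 0.112, and leaving out D2 replicate 1 or Prol replicates 2 or 3 ended that for Ndufa12, with a value of up to 0.0833.

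In complex II, succinate dehydrogenase, Sdhc (chr1:171127165-171150603, minus strand), 1 of its membrane anchors, was at 82.2, 93.2 and 84.3 CPM in WT Prol and at 117, 122 and 106 CPM in WT D2. All D2 libraries were higher, and the gene rose by 0.41 ± 0.14 (adjusted p = 0.033). The call was lost without WT D2 replicates 1 or 2 or WT Prol replicates 1 or 3, with adjusted p-values up to 0.108. In KO the value was 0.32 ± 0.14, with an adjusted p of 0.0836, and 0.0217 with the replicate block. Sdha, Sdhb and Sdhd did not pass in either genotype without the block, and Sdhd fell by 0.47 in KO with it (adjusted p = 0.0112).

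Complex III, cytochrome c reductase, had 1 of 8 nuclear members (12.5%) called lower in each genotype, against 14.1% of all genes in WT and 15.2% in KO. Uqcrc1 (chr9:108936633-108949623, plus strand), a core protein on the matrix side, was at 175, 171 and 164 CPM in WT Prol and at 130.2, 107 and 99.0 CPM in WT D2. In KO it was at 174, 165 and 154 CPM in Prol and at 103, 90.5 and 96.5 CPM in D2. In each genotype all D2 libraries lay below all Prol libraries. Uqcrc1 fell by 0.61 ± 0.16 (adjusted p = 0.00982) in WT and by 0.77 ± 0.16 (adjusted p = 0.00194) in KO. The KO call was kept without each of the 18 libraries in turn, and the WT call was lost without WT D2 replicate 3 (adjusted p = 0.0513).

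In complex IV, besides the muscle isoforms, Cox5a (chr9:57521274-57532426, plus strand), a subunit on the matrix side, fell in both genotypes. It was at 119.8, 130.2 and 140 CPM in WT Prol and at 84.1, 95.4 and 80.6 CPM in WT D2, and at 111, 136 and 126 CPM in KO Prol and at 68.6, 82.9 and 76.7 CPM in KO D2. The D2 libraries lay below the Prol libraries in each genotype. The fold change was -0.59 ± 0.18 (adjusted p = 0.0206) in WT and -0.71 ± 0.18 (adjusted p = 0.00636) in KO. The WT call was lost without WT D2 replicate 3 or WT Prol replicates 2 or 3, with adjusted p-values up to 0.0833, and the KO call was kept without each library in turn. Cox4i1, 1 of the most abundant nuclear members with 770.4 CPM per kilobase in WT Prol, was not called in any comparison.

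Complex V, ATP synthase, had no member called in WT D2/Prol and 3 of 17 (17.6%) called lower in KO D2/Prol, against 15.2% of all genes. Atp5a1, the alpha subunit of the catalytic head, was at 796, 725 and 758 CPM in KO Prol and at 511, 382 and 411 CPM in KO D2, and it fell by 0.82 ± 0.25 (adjusted p = 0.018). Atp5b (chr10:128083273-128090391, plus strand), the catalytic beta subunit, was at 1085, 969 and 899 CPM in KO Prol and at 683, 510.2 and 564 CPM in KO D2, and it fell by 0.76 ± 0.25 (adjusted p = 0.03). For each of these genes all KO D2 libraries were below all KO Prol libraries. In WT the values were -0.64 ± 0.25 for Atp5a1 (adjusted p = 0.0596) and -0.63 ± 0.25 for Atp5b (adjusted p = 0.0689). The KO calls were lost without KO D2 replicates 2 or 3 or KO Prol replicates 1 or 3 for both genes, with adjusted p-values up to 0.108, and for Atp5b also without KO Prol replicate 2. Atp5d, the delta subunit of the central stalk, picked out after its values were seen, fell by 0.42 ± 0.15 in KO (adjusted p = 0.0444), a call kept in 5 of 18 fits that left out 1 library and lost without any 1 of the 6 KO Prol and KO D2 libraries, with adjusted p-values up to 0.183.

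Atp5g1, Atp5g2 and Atp5g3 encode the same ring subunit of ATP synthase from 3 genes. Atp5g3 was the most abundant of them, with 874 CPM per kilobase in WT Prol. Atp5g2 (chr15:102662864-102672352, minus strand) varied irregularly between libraries, at 43.2, 193 and 65.2 CPM in WT Prol, 151, 147 and 65.5 CPM in KO Prol, 40.7, 67.0 and 47.9 CPM in WT D0, 163, 143 and 71.4 CPM in KO D0, 112, 63.8 and 74.0 CPM in WT D2 and 33.0, 61.8 and 60.5 CPM in KO D2. All KO D0 libraries lay above all WT D0 libraries, and all KO D2 libraries lay below all WT D2 libraries. KO D2/Prol was -1.19 ± 0.49, with an adjusted p of 0.0774, and 0.0321 with the replicate block. Near-identical copies of such genes elsewhere in the genome can take part of their reads when counts are estimated, and how far this was so was not tested.

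A list of 19 conserved nuclear members, with core subunits of complex I, all of complex II, Uqcrc1, Uqcrc2 and Uqcrfs1, Cox5a and Cox5b, and Atp5a1, Atp5b and Atp5c1, had a median of -0.22 in WT D2/Prol, with 6 above 0 and 13 below. In KO D2/Prol the median was -0.36, again with 6 above 0 and 13 below. Of these 19, 1 was called higher (5.26%) and 2 lower (10.5%) in WT, against 16.6% and 14.1% of all genes. In KO 0 were called higher and 4 lower (21.1%), against 17.1% and 15.2%.

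Against D0, the calls were as follows. In WT D2/D0, Cox8b, Cox6a2 and Ndufv3 were called higher and Ndufa12 and Uqcrc1 lower, which is 3 and 2 of 80, against 14.7% and 11.3% of all genes. In KO D2/D0, Cox8b and Cox6a2 were called higher and Uqcrc1, Cox5a, Ndufa12 and Atp5a1 lower, which is 2 and 4 of 80, against 15.3% and 12.9%. The calls of Cox8b and Cox6a2 were kept without each library in turn. In WT, Ndufa12, Ndufv3 and Uqcrc1 were each lost without D0 replicate 3 or D2 replicate 3, and also without D0 replicate 2 or D2 replicate 1 (Ndufa12), D0 replicate 1 or D2 replicate 2 (Ndufv3) or D2 replicate 2 (Uqcrc1). In KO, Cox5a, Ndufa12 and Atp5a1 were lost without D0 replicate 3, Ndufa12 also without D2 replicate 1, and Atp5a1 also without D0 replicate 1 or D2 replicates 2 or 3. The Ndufa12 value in WT D2/D0 was -0.68 ± 0.20 (adjusted p = 0.0217). The nuclear median was -0.042 in WT, with 37 above 0, and -0.18 in KO, with 23 above 0 and 57 below, whereas it was 0.056 over all genes in KO. With the replicate block, KO D2/D0 had 6 nuclear members called higher and 25 lower, against 23.6% and 22.4% of all genes. The 25 included 8 of 17 members of complex V and 4 of 8 of complex III, and Atp5g3 (-0.82, adjusted p = 6.91e-05) had the smallest p among them. D2/Prol and D2/D0 share the D2 libraries.

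From Prol to D0, no member was called. All genes tested gave 0.00566% in WT D0/Prol and 0% in KO D0/Prol, and 2.17% and 1.12% at an unadjusted p under 0.05, where no member passed either. The median of the nuclear members was 0.10 in WT (61 above 0, 19 below) and 0.13 in KO (65 above 0, 15 below).

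The question of the genotype was addressed within each stage. No nuclear or mitochondrially encoded member was called between KO and WT in limma in Prol, D0 or D2, and none in the difference between the D2/Prol changes of the genotypes. Over all genes, 0.00566% were called in KO/WT Prol, 0% in KO/WT D0, 0% in KO/WT D2 and 0% in the difference of changes. At an unadjusted p under 0.05, the members passing were 0 in KO/WT Prol (1.11% of all genes), 1 in KO/WT D0 (1.47%), 0 in KO/WT D2 (1.96%) and 0 in the difference of changes (0.945%). The 1 member was Atp5g2, at 1.22 with an unadjusted p of 0.0244. With the replicate block no member was called either, and with 1 CPM added before the log2 Cox6a2 was called at D2, as given above.

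At D2 the nuclear members were nearly all slightly lower in KO. The median log2 fold change KO/WT D2 was -0.19, with 3 of 80 above 0 and 77 below, whereas it was -0.013 over all genes. The median was -0.065 in KO/WT Prol (14 above 0, 66 below) and -0.032 in KO/WT D0 (24 above 0, 56 below). Within replicate numbers, the D2 difference had a median of -0.25 in replicate 1, -0.21 in replicate 2 and -0.089 in replicate 3, with 79, 70 and 63 of 80 members lower in KO. The median SE of a member in this comparison was 0.34, and 0.13 with the replicate block. The median also moved when single libraries were left out, which leaves the replicate numbers uneven between the genotypes. Without KO D2 replicate 1 the median was 0.061 (48 above 0, 32 below), without WT D2 replicate 2 it was 0.0090 (41 above 0, 39 below), and without WT D2 replicate 1 it was -0.41, without KO D2 replicate 2 -0.37 and without KO D2 replicate 3 -0.27. With the 6 libraries numbered 1 left out, it was -0.15, with 10 above 0 and 70 below. Members share libraries and are not replicates of the genotype.

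Libraries of KO D2 and WT D2 did not overlap, with KO lower, for 3 of the 80 nuclear members, Cox6a2, Atp5g2 and Atp5d. This share was close to that of all genes, 3.81%. No member lay apart with KO higher, against 2.35% of all genes. The differences were -0.70 ± 0.49 for Atp5g2 and -0.14 ± 0.15 for Atp5d, each with an adjusted p of 1.

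**Figure D2:**
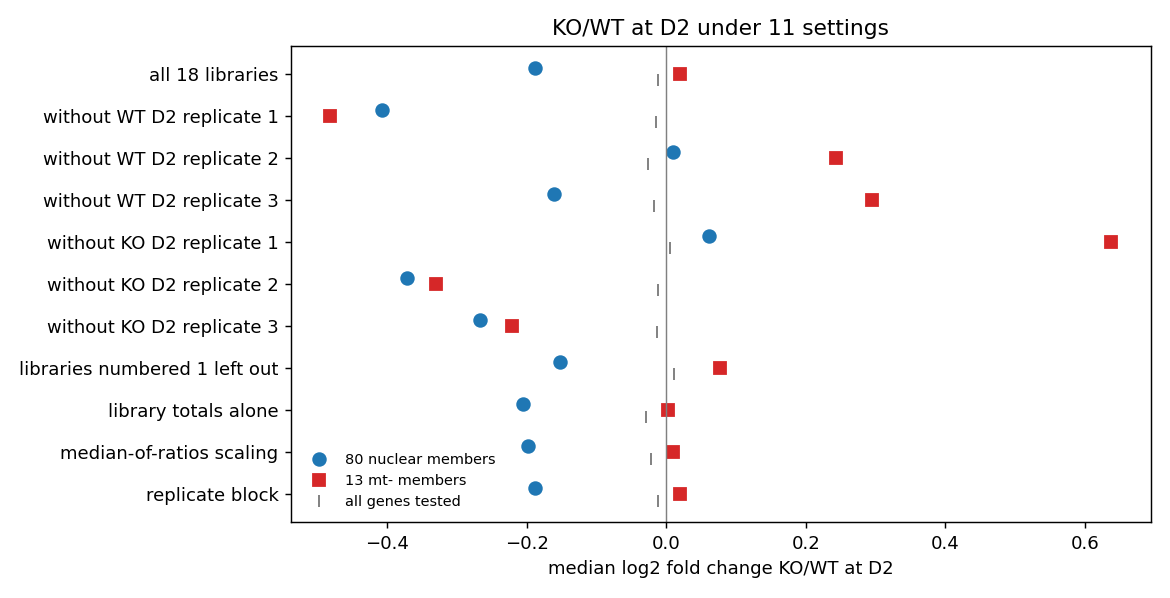
Median log2 fold change KO/WT D2 of the 80 nuclear members, the 13 mt- members and all genes tested, with all libraries, with single D2 libraries left out and under other settings. The nuclear median is -0.19 with all libraries, turns to 0.061 without KO D2 replicate 1 and lies at 0.0090 without WT D2 replicate 2.

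The 13 protein-coding genes of mitochondrial DNA are transcribed as long precursors and encode subunits of complex I (mt-Nd1 to mt-Nd6 and mt-Nd4l), complex III (mt-Cytb), complex IV (mt-Co1 to mt-Co3) and complex V (mt-Atp6 and mt-Atp8). They were the more abundant class. Their median level per kilobase was 1888 CPM in WT Prol and 1836 CPM in WT D2, against 148 and 149.7 CPM for the nuclear members. mt-Co1, the catalytic subunit of complex IV, was the highest at 5381 CPM per kilobase in WT Prol, and mt-Nd6, the only one on the minus strand, the lowest at 160.1 CPM per kilobase. Among nuclear members, Ndufa4 reached 979 CPM per kilobase. The annotated positions of mt-Atp8 (M:7766-7969) and mt-Atp6 (M:7927-8607) overlap, as do those of mt-Nd4l (M:9877-10173) and mt-Nd4 (M:10167-11544), so that reads in the overlaps cannot be assigned to 1 of the genes alone.

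None of the 13 was called in any of the comparisons, and none passed an unadjusted p under 0.05 in any. The medians were -0.15 in WT D2/Prol (5 above 0, 8 below) and 0.15 in KO D2/Prol (10 above 0, 3 below). mt-Co1 was at 4832, 13278 and 6829 CPM in WT Prol and at 4159, 11519.6 and 14006 CPM in WT D2, and at 3528, 10834 and 9324 CPM in KO Prol and at 3674, 15389 and 13314 CPM in KO D2. Replicate 1 was the lowest in each group, and the ranges overlapped widely. The D2/Prol value of mt-Co1 was 0.21 ± 0.73 in WT and 0.36 ± 0.73 in KO. The median SE of the mt- members was 0.63 and the D2/Prol medians within replicate numbers were -0.69, -0.17 and 0.35 in WT and -0.20, 0.35 and 0.40 in KO. Without D2 replicate 1 the medians were 0.39 in WT and 0.76 in KO, without D2 replicate 2 they were -0.40 and -0.19, without D2 replicate 3 -0.48 and -0.070, and without Prol replicate 1 -0.33 and -0.24. These left-out fits leave the replicate numbers uneven between D2 and Prol.

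From D0 to D2 the mt- members leaned upwards in both genotypes. The median D2/D0 was 0.58 in WT and 0.56 in KO, with 12 of 13 above 0 in each, and 0.0012 and 0.056 over all genes. From Prol to D0 they leaned downwards, at -0.61 in WT (1 above 0, 12 below) and -0.36 in KO (2 above 0, 11 below). Within replicate numbers, the D2/D0 medians were 0.32, 0.50 and 0.85 in WT and 0.23, 0.31 and 0.80 in KO, all above 0. Without WT D0 replicate 1 the WT median was 0.18, and without KO D0 replicate 1 the KO median was 0.00010, in fits with uneven replicate numbers. With the replicate block, 3 of the 13 mt- members were called higher in KO D2/D0, against 23.6% of all genes. They were mt-Nd4 at 0.65 (adjusted p = 0.0163), mt-Co3 at 0.92 (adjusted p = 0.0257) and mt-Cytb at 0.60 (adjusted p = 0.0419). In WT D2/D0 the block gave 4 higher (mt-Atp6, mt-Nd4, mt-Cytb and mt-Nd5), against 23% of all genes. Between genotypes at D2 the mt- median was 0.019, with 7 above 0 and 6 below. Within replicate numbers 1, 2 and 3 it was -0.147, 0.221 and -0.073. It was 0.64 without KO D2 replicate 1 and -0.48 without WT D2 replicate 1, which leaves the replicate numbers uneven between the genotypes.

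The spread of the members followed the replicate numbers. Summed over the 80 nuclear members, their share of all counts ranged from 0.727 to 1.78%, and that of the 13 mt- members from 0.833 to 4.72%. The nuclear share was lowest in replicate 1 and highest in replicate 2 in 6 of 6 groups. In WT it was 0.992, 1.42 and 1.16% in Prol, 0.908, 1.78 and 1.27% in D0 and 0.86, 1.78 and 1.44% in D2. In KO it was 0.975, 1.4 and 1.09% in Prol, 1.02, 1.65 and 1.2% in D0 and 0.727, 1.49 and 1.32% in D2. The mt- share was lowest in replicate 1 in 6 of 6 groups and highest in replicate 2 in 5, the exception being WT D2, with 4.03% in replicate 2 and 4.62% in replicate 3.

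The ratio of the nuclear share between D2 and Prol of the same number was 0.866, 1.26 and 1.24 in WT and 0.746, 1.07 and 1.2 in KO, so that its direction differed between numbers. The summed share of 81 cytoplasmic ribosomal protein genes, which ranged from 4.65 to 13.3%, was likewise lowest in replicate 1 and highest in replicate 2 in 6 of 6 groups. The TMM scaling factors of the D2 libraries were 0.909 (WT) and 0.931 (KO) in replicate 1 and between 1.11 and 1.18 in the others. The part of library composition in the results above was not tested.

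**Figure D3:**
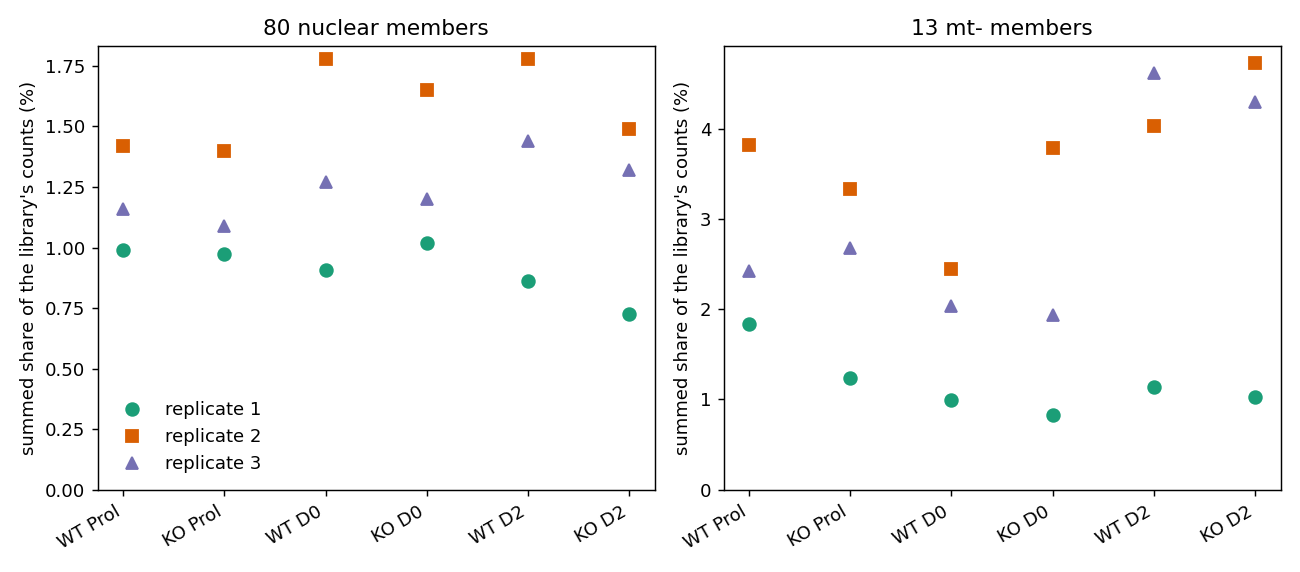
Percent of all counts in each of the 18 libraries that fell on the 80 nuclear and the 13 mt- members, by group and replicate number. Replicate 1 is the lowest of its group in all 6 groups for both classes, at 0.727 to 1.02% for the nuclear members.

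Members differed in this respect. From replicate 1 to replicate 2, 60 of 80 nuclear members were higher in replicate 2 in all 6 groups, and the median log2 difference over the 80 was 0.79. In contrast, Atp5b, Ndufa10, Ndufs1, Ndufv1, Sdha and Uqcrc1 were lower in replicate 2 in all 6 groups. Sdha, the flavoprotein of complex II, was at 161, 71.1 and 117 CPM in WT D0. Across the 80 members, the difference had a Spearman correlation of -0.425 with transcript length, given as a description over genes that share their libraries. The median SD within groups was 0.51 (log2) for the 40 members with transcripts of 321.5 to 659 nt and 0.39 for the 40 longer ones. It was 0.44 for all nuclear members, 0.27 for the 4 of complex II, 0.50 for the 15 of complex IV, 0.83 for the mt- members and 0.47 over all genes. The median transcript length was 669.5 nt for the nuclear members and 2214 nt over the genes with a length.

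**Figure D4:**
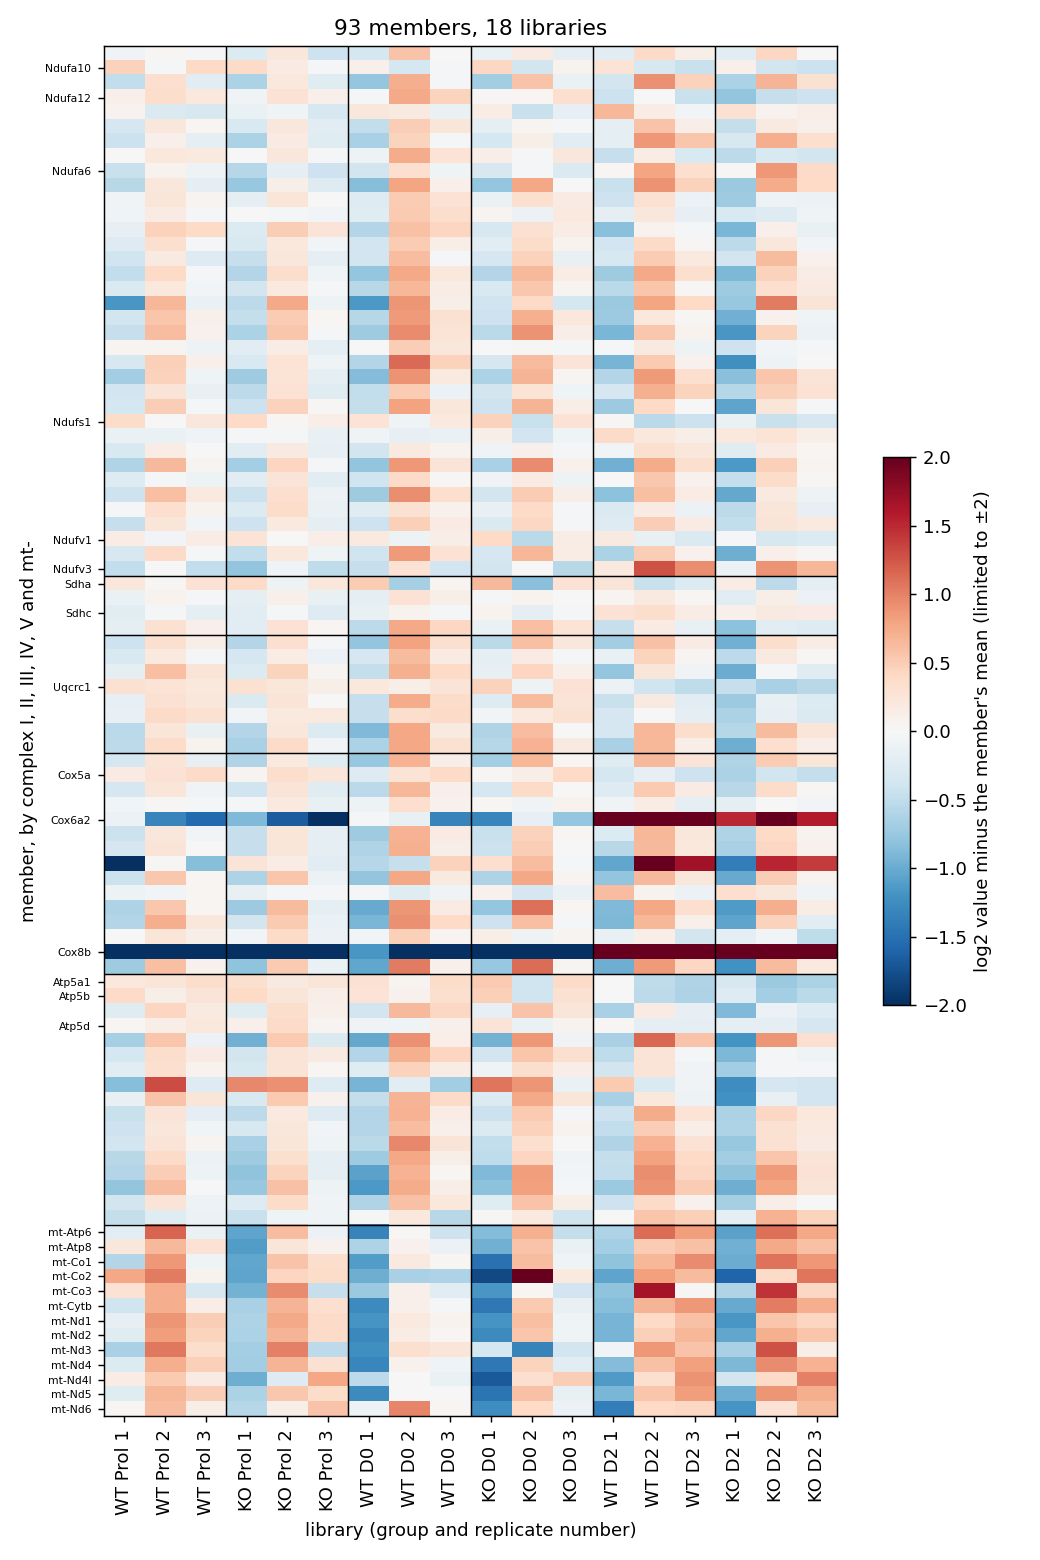
Log2 level of the 93 members in the 18 libraries relative to each member's mean, by complex (colour scale limited to ±2), with the names of the mt- members and of the nuclear members called or lower in replicate 2 in all 6 groups. Replicate 1 columns are lower for most members in each group, Cox8b and Cox6a2 stand out at D2, and the 6 members that were lower in replicate 2 in all groups run against the others.

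Other mitochondrial genes were counted in lists for comparison, beside 16.6% of all genes called higher and 14.1% lower in WT D2/Prol and 17.1% and 15.2% in KO D2/Prol. A list of 9 genes outside the symbol rule held electron carriers and other proteins, not all of them subunits, such as Ppa2, Atpif1 and Dmac1. Of these 9, 0 were called higher and 3 lower (33.3%) in WT D2/Prol and 0 and 2 (22.2%) in KO D2/Prol. The medians were 0.10 and -0.0029. Cycs, the mobile carrier cytochrome c, was at 110, 209 and 172 CPM in WT Prol and 63.0, 80.3 and 67.4 CPM in WT D2, and fell by 1.18 in WT (adjusted p = 0.0102) and by 1.62 in KO (adjusted p = 0.00109). Cyc1, cytochrome c1 of complex III, fell by 0.74 in WT (adjusted p = 0.00932) and by 0.98 in KO (adjusted p = 0.00125). For Cycs all WT D2 libraries lay below all WT Prol libraries. Ppa2, the mitochondrial pyrophosphatase, fell by 0.65 in WT (adjusted p = 0.0362).

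Of 50 assembly factors, 2 were called higher and 7 lower (14.0%) in WT (median -0.15) and 2 and 10 (20.0%) in KO (median -0.23), so that the share called lower was close to that of all genes in WT. Surf1 and Ndufaf3, which act in the assembly of complexes IV and I, rose in both genotypes, by 0.62 (adjusted p = 0.0146) and 0.92 (adjusted p = 0.0304) in WT. Of 13 genes of the tricarboxylic acid cycle, 0 were called higher and 4 lower (30.8%) in WT and 0 and 5 (38.5%) in KO. All 13 were below 0 in both genotypes, with medians of -0.46 and -0.49. Idh3a, a subunit of isocitrate dehydrogenase, fell by 0.96 (adjusted p = 0.00233) in WT and by 1.23 (adjusted p = 0.000325) in KO.

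Of 18 outer membrane, import and cristae proteins, 0 were called higher and 7 lower in each genotype (medians -0.46 and -0.62). They included Tomm40, the import channel, which fell by 1.29 (adjusted p = 0.000845) in WT, and Vdac3, an outer membrane channel, which fell by 0.47 (adjusted p = 0.0246). Of 4 carriers and uncoupling proteins, Slc25a5, an ADP/ATP carrier, was called lower in both genotypes, at -1.23 (adjusted p = 0.00028) in WT and -1.51 (adjusted p = 4.38e-05) in KO. The list medians were -0.20 and -0.21.

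Of 17 genes of mitochondrial DNA maintenance and transcription, 0 were called higher and 4 lower (23.5%) in WT (median -0.19) and 1 and 4 (23.5%) in KO (median -0.34). Tfam, which packages mitochondrial DNA and starts its transcription, fell by 0.61 (adjusted p = 0.0277) in WT and by 0.72 (adjusted p = 0.0111) in KO, and Polrmt, the mitochondrial RNA polymerase, by 0.54 (adjusted p = 0.0132) in WT. Of 14 transcriptional regulators of mitochondrial genes, 1 was called higher and 3 lower (21.4%) in WT (median -0.15) and 0 and 3 (21.4%) in KO (median -0.21). Nrf1 fell by 0.86 (adjusted p = 0.000858) in WT and by 0.96 (adjusted p = 0.000337) in KO. Ppara, a fatty acid receptor, rose by 2.68 (adjusted p = 0.000263) in WT. Its levels were low, at 0.174, 0.0988 and 0.152 CPM in WT Prol and 1.03, 0.806 and 0.83 CPM in WT D2. In KO, where it was not called, Ppara was at 0.435, 0.487 and 0.283 CPM in Prol and 0.507, 0.792 and 1.19 CPM in D2. In none of these lists was a gene called in KO/WT D2.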

How the data were processed

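Polyadenylated RNA was sequenced from 18 libraries in 6 groups of 3. Per the labels and the study's methods, the authors trimmed reads with cutadapt, converted files with bedtools, estimated gene expression with RSEM against GRCm38 (mm10) and scaled it with edgeR. The deposited values are CPM with 0.5 added to the expected count and the total multiplied by a TMM factor. The lowest value of a library gave back the counts and totals. Of the recovered counts under 20, 36.0 to 49.2% were whole within 0.01, so no count test was run. log2 of the deposited values was fitted in limma 3.58.1 (R 4.3.3) with 1 factor of 6 groups and a trended variance. Of 19153 genes, 17672 had more than 5 counts in all 3 libraries of a group, and p-values were adjusted over these by Benjamini-Hochberg. The fit was tested on simulated data. Levels per kilobase used the median protein-coding transcript length.

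The members and lists were chosen with earlier results of these data known. Named genes were the isoform pairs, the core subunits, all mt- genes, up to 3 members a complex in each direction with the smallest p in WT D2/Prol, and the 3 nuclear members with the smallest p in KO/WT D2. The replicate number was tried as a block. Deviations of same-numbered libraries correlated at 0.151 to 0.645 in every pair of groups compared, with exceptions in replicate 3. There, WT D2 correlated with WT Prol at 0.0393 and with WT D0 at 0.01. The numbers were taken to pair the samples outside those comparisons. The main calls, SE and left-out fits nevertheless come from the fit without the block in all comparisons. In KO D2/Prol the median SE of the nuclear members was 0.34 in that fit and 0.13 with the block. The study's methods blocked on the sequencing lane, which the labels do not give. Other alternatives were the criteria, scaling, filter, pseudocount, weights, subsets of groups and libraries left out.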

Additional observations from a re-analysis of the deposited data

How the results depend on the processing

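Counts of called members (higher and lower, nuclear unless said otherwise) moved with the model more than the values did. None of the named members changed the sign of a called value. Where only 1 direction is named, the count in the other is not given and need not be 0. With the replicate block the counts were 16 and 12 in WT D2/Prol and 8 and 20 in KO D2/Prol. They were 9 and 14 with 4 mt- higher in WT D2/D0, and 6 and 25 with 3 mt- higher in KO D2/D0. All genes gave 24.4% and 23.3% in WT D2/Prol and 24.6% and 23.9% in KO D2/Prol. In WT D2/D0 all genes gave 23% and 20.3%, and in KO D2/D0 23.6% and 22.4%. In WT D2/Prol and WT D2/D0 the libraries of replicate 3 correlated at 0.0393 and 0.01, so that the numbers were not taken to pair the samples there, although those of replicates 1 and 2 correlated at 0.269 to 0.47. A fit with voom weights, a random replicate block and no filter was chosen after seeing the data. It gave 10 and 8 in WT D2/Prol and 15 lower in KO D2/Prol, of 21 members called there. In WT D2/D0 it gave 6 and 8 with 1 mt- higher, and in KO D2/D0 5 and 17. With library totals alone the counts were 7 and 1 in WT D2/Prol and 5 and 1 in WT D2/D0. In KO D2/D0 4 were higher, of 7 members called there. The median of all genes then moved from -0.012 to 0.15 in WT D2/Prol and from 0.024 to 0.16 in KO D2/Prol, with nuclear medians of 0.25 and 0.10. A rule of an unadjusted p under 0.05, log2 over 1.5 and 10 CPM was added after seeing the data. With it, 0 members passed in each of these D2 comparisons in either direction. With 1.5-fold in place of the log2 limit the counts were 1 and 4 in WT D2/Prol and 2 and 6 in KO D2/Prol. All genes gave 10.8% and 12.8% in WT D2/Prol and 11.3% and 13.7% in KO D2/Prol. In WT D2/D0 1 was higher (Ndufv3), and Ndufa12, Atp5a1 and Atp5b were lower. In KO D2/D0 Ndufa6 and Ndufv3 were higher and 8 were lower, and in KO/WT D0 1 passed. For WT D2/D0, KO D2/D0 and KO/WT D0, the shares of all genes under the 1.5-fold and log2 limits are not given here. At an unadjusted p under 0.05 the counts were 9 and 6 in WT D2/Prol, 6 lower in WT D2/D0, 5 and 10 in KO D2/D0 and 1 in KO/WT D0. Of all 17672 genes, 7166, 6469, 6855 and 260 passed in these comparisons, in either direction. Without the 6 libraries numbered 1, also chosen after seeing the data, 5 were lower in WT D2/Prol, of 10 members called there. In WT D2/D0 8 were lower, of 12 members called, and in KO D2/D0 the counts were 4 and 7 with 1 mt- higher. With only the groups compared, 0 were lower in WT D2/D0 and 0 in KO D2/D0. With 1 CPM added, 1 was called in KO/WT D2. The shares of all genes called are not given here for this fit, nor for the voom, library-total and left-out fits. They are also not given for the fits of only the groups compared. Leaving out 1 library gave 2 to 5 higher and 0 to 5 lower in WT D2/Prol, 2 to 5 and 3 to 7 in KO D2/Prol, 2 to 3 and 0 to 5 in WT D2/D0, and 2 to 4 and 2 to 7 in KO D2/D0. The block and the smaller fits change the residual spread and its degrees of freedom, and what lies behind the other moves was not tested. With 3 libraries a group, a median SE of 0.34 for nuclear and 0.63 for mt- members (log2) limits what the fit without the block could detect. With the replicate block the median SE was 0.13 and 0.25, for example in KO/WT D2.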
